A study of Mus musculus with 16 samples.

Results

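The genes of the voltage-gated calcium channels, the voltage-gated sodium channels and the hyperpolarization-activated HCN channels were followed through RNA of the mouse somatosensory cortex after sleep disruption (SD). Members were the genes whose symbol starts with Cacn, with Scn and a digit, or with Hcn and a digit, and that had a read in at least 1 of 12 libraries. The rule found 44 of the 24421 genes in the deposited tables, of which 26 are Cacn genes, 14 Scn genes and 4 Hcn genes. All 44 had a read in each comparison and were tested, and 37 had a mean normalized count of at least 100 over the 12 libraries. Wild-type mice (C57BL/6 in the labels, C57BL/6J in the study's methods) and mice homozygous for the loss of AcPb, the neuron-specific isoform of the interleukin-1 receptor accessory protein, were either left undisturbed (controls) or kept awake by gentle handling from ZT20 to ZT4 (zeitgeber time, in hours after light onset), under dim red light while it was dark, and cortex was collected from all mice at ZT4. Both lines were bred for 5 to 7 generations by the submitters, and mice were 2 to 3 months old. Each of the 4 groups (wild-type controls, wild-type mice after SD, AcPb-/- controls, AcPb-/- mice after SD) had 3 libraries, each labelled as a separate sample. AcPb-/- controls and AcPb-/- mice after SD share the deletion.

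Voltage-gated calcium and sodium channels are built around a large pore-forming alpha subunit. Sodium alpha subunits carry the upstroke of the action potential, and calcium alpha subunits let calcium into the cell, where it triggers transmitter release and signals to enzymes and to the nucleus. Beta, alpha2delta and gamma subunits set how many channels reach the membrane and how they open, and several gamma family members act instead as auxiliary subunits of AMPA glutamate receptors (TARPs). HCN channels open on hyperpolarization and shape the resting potential, rhythmic firing and the integration of dendritic input in cortical pyramidal neurons.

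Values are normalized counts, the reads on a gene divided by a scaling factor of its library. Fold changes are differences of log2(normalized count + 1), which understate the change of low genes, with the standard error (SE) and limma's p-value after Benjamini-Hochberg adjustment across the whole table. The threshold was an adjusted p under 0.05. Replicates are given in the order of their label numbers, which are 01, 02 and 03 in wild-type controls, 01, 02 and 04 in wild-type mice after SD, 03, 04 and 05 in AcPb-/- controls, and 02, 03 and 04 in AcPb-/- mice after SD.

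Reads on genes came to between 26504840 and 41615582 in the 6 control libraries and between 58770286 and 71857505 in the 6 SD libraries, so depth differed between controls and SD. Il1rap, the gene that encodes AcPb, had 1496, 1476 and 1519.9 normalized counts in wild-type controls and 1588, 1647 and 1515 in AcPb-/- controls. AcPb is one isoform of Il1rap, so a count of the whole gene does not check the deletion. The methods describe male wild-type mice and the labels male founders of both lines, but 4 of the 12 libraries held between 25352 and 39358 reads of Xist and at most 2 Y-linked reads: wild-type controls 02 and 03 and AcPb-/- controls 04 and 05. In the other 8 libraries Xist had at most 13 reads. All 4 were controls, so each SD comparison set 3 SD libraries without Xist against 1 control without and 2 controls with it. Each SD call was therefore also tested in a fit of the 4 groups with a term for the libraries with Xist reads (the Xist term), and in a fit without those libraries, in which 1 control per genotype is assumed to vary like the SD groups. The cortical neuron marker Slc17a7 had between 50183 and 75887 normalized counts in every library. In each genotype its SD libraries lay below its controls. Its log2 fold change was -0.24 (adjusted p = 0.0662) in wild-type and -0.21 (adjusted p = 0.086) in AcPb-/- mice. Of 12 cortical neuron markers, 3 rose and 2 fell past the threshold in wild-type mice, and 3 rose and 1 fell in AcPb-/- mice. Striatal markers were uneven among controls (a sum over 16 genes of 28590.4, 20194 and 13752 in wild-type controls), oligodendrocyte markers fell in wild-type mice after SD (6 of 8 past the threshold, and 2 of 8 in AcPb-/- mice, with sums of 110214 to 141119 in controls and 88606 to 121366 after SD in wild-type mice), microglia markers fell in AcPb-/- mice (3 of 8, with sums of 17083 to 17912 in controls and 12899 to 15553 after SD), and the 6 choroid plexus markers summed to 17317 in AcPb-/- SD 04 against 152 to 467 in the other 11 libraries. Of 7 endothelial markers, 3 rose and 1 fell in each genotype, with sums that overlapped. The part of these cell types in the channel values was not tested.

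In wild-type controls auxiliary subunits were among the most abundant channel transcripts per length. The calcium channel beta subunit Cacnb3 had 6058 ± 191 normalized counts per kilobase of transcript (mean ± SD, n = 3), and the sodium channel beta subunit Scn2b had 3284 ± 135. Neither overlapped with its neighbours in the order of levels across the 3 libraries. The pore-forming sodium subunits Scn8a (2700.0 ± 127) and Scn2a1 (2530.3 ± 146), the main ones of excitatory cortical neurons, came next and overlapped with each other.

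**Figure D1:**
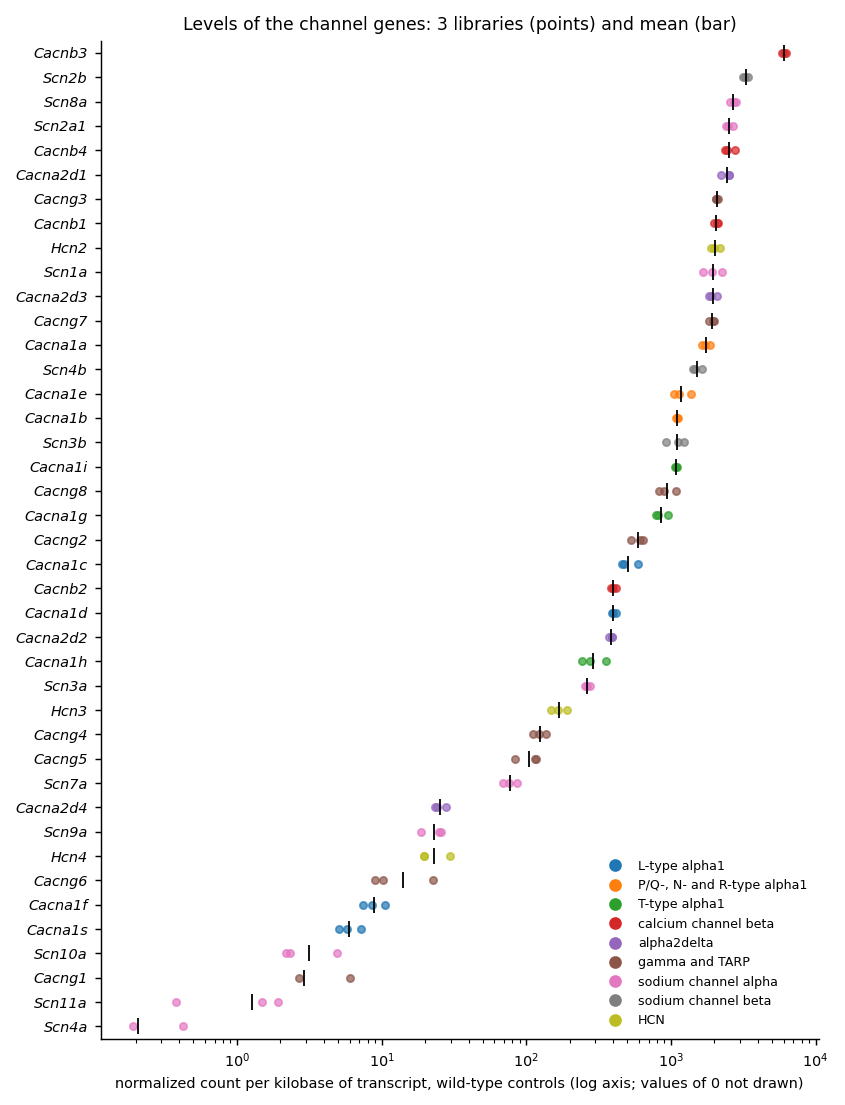
Levels of 41 channel genes in the 3 wild-type control libraries, as normalized count per kilobase of transcript on a log axis, with 1 point per library, a bar for the mean and a colour for each role. Cacnb3 (6058 per kilobase) lies above Scn2b (3284), and the genes of skeletal muscle and sensory neuron channels (Cacna1s, Cacng1, Scn4a, Scn10a, Scn11a) lie at the low end.

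Among the other roles, Cacna1c led the L-type alpha subunits (507 ± 72.5 per kilobase), Cacna1a the P/Q-, N- and R-type (1733 ± 112), Cacna1i the T-type (1087 ± 19.96), Cacna2d1 the alpha2delta subunits (2425 ± 168), Cacng3 the gamma family (2067 ± 47.9) and Hcn2 the HCN genes (2028 ± 149). At the other end, 7 members had a mean under 100 normalized counts: the retinal L-type subunit Cacna1f, the skeletal muscle genes Cacna1s, Cacng1 and Scn4a, the sensory neuron sodium channels Scn10a and Scn11a, and Cacng6. The level of a gene in bulk tissue does not tell fewer cells of a type from less RNA per cell.

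After SD, 14 of the 44 members were past the threshold in wild-type mice, a share of 31.8% against 25.4% of all 20417 genes tested. Of these, 8 rose (13.2% of all genes did) and 6 fell (12.2% of all genes). In AcPb-/- mice 13 of 44 were past it, 29.5% against 27.4% of 20574 genes, with 8 higher (14.1% of all genes) and 5 lower (13.3%). The share of members past the threshold was therefore near that of all genes, and the family did not move one way: its median log2 fold change was -0.05 in wild-type and 0.00 in AcPb-/- mice, against 0.00 and 0.01 over all genes tested. The 3 SD libraries lay apart from the 3 controls for 17 members in wild-type mice (40.2% of all genes did so) and for 16 in AcPb-/- mice (42.4%).

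**Figure D2:**
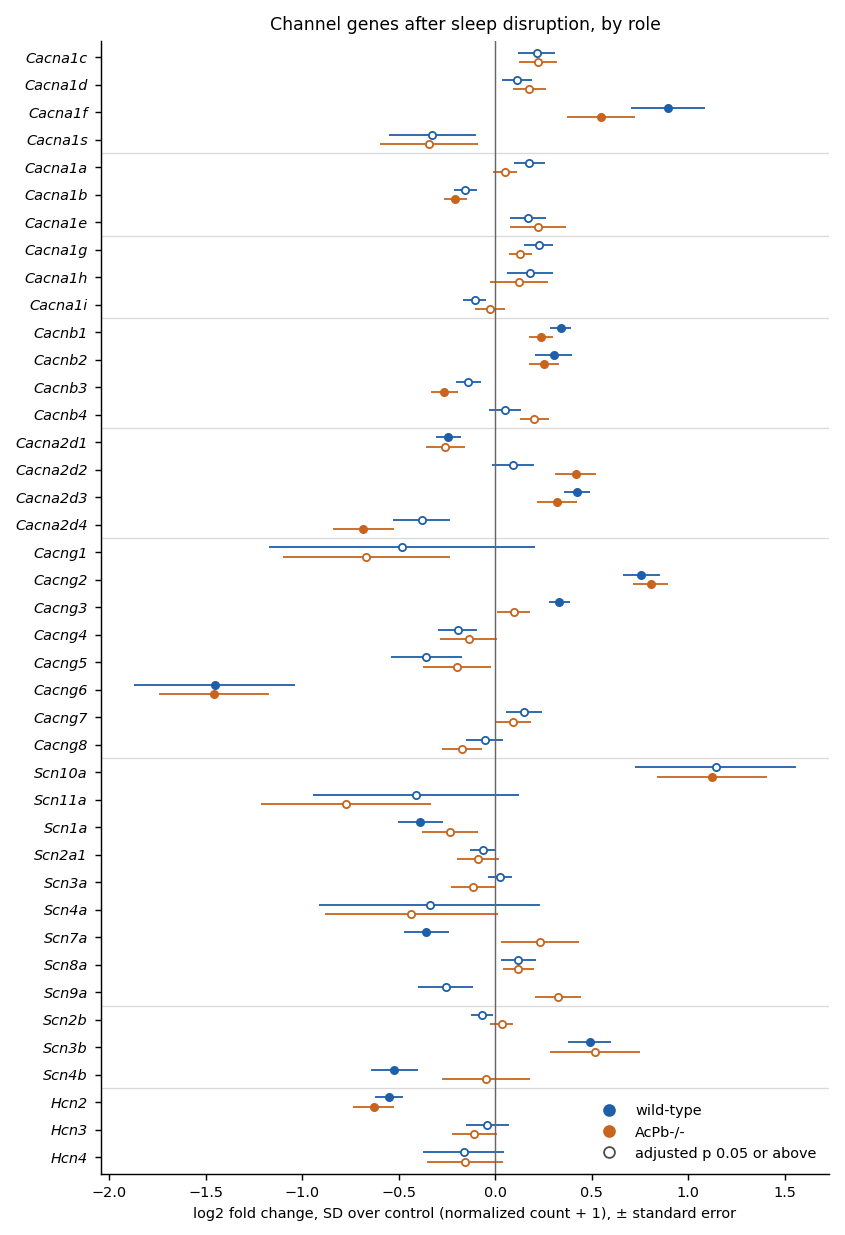
Log2 fold change of 41 members, SD over control, in wild-type (blue) and AcPb-/- mice (orange), with bars for the standard error and rows grouped by role. Filled points are past the threshold (13 in wild-type, 12 in AcPb-/- mice). Cacng2 lies at 0.76 and 0.80, Hcn2 at -0.55 and -0.63.

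Some roles held both rises and falls. The 8 members past the threshold in both genotypes had the same direction in each. Among them, Cacna1f, Cacna2d3, Cacnb1, Cacnb2 and Cacng2 rose, and Cacng6 and Hcn2 fell. They were 57.1% of the calls in wild-type and 61.5% of those in AcPb-/- mice. The overlap of calls over all genes was not counted, so these shares are not a result about the channel genes. The count of calls depended on single libraries. In wild-type mice it was 8 without control 02, 8 without SD 01 and 9 without SD 02, and the share of all genes called fell likewise, to 13.3%, 14.5% and 14.0%. In AcPb-/- mice it was 5 without control 04, 7 without control 05, 5 without SD 02 and 5 without SD 04, with 16.7%, 20.2%, 16.6% and 17.6% of all genes. With the term for the libraries with Xist reads it was 7 in wild-type (19.3% of all genes) and 10 in AcPb-/- mice (24.7%), and without those libraries 0 and 2 (3.31% and 10.1%), the 2 being Cacng2 and Cacna2d3. All 27 calls, 14 in wild-type and 13 in AcPb-/- mice, kept their direction in both of these fits. Both fits reuse libraries in which the calls were made, so a kept direction is not independent support. In the fit of the 4 groups without the Xist term 21 of the 27 calls stayed past the threshold, and with the term 13 did.

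Cacna2d3 and Hcn2 were past the threshold in opposite directions in both genotypes, and for both the start of transcription coincides in RefSeq and GENCODE. Their promoters, the 250 bases before the RefSeq start (GRCm38.p6), are shown because they let 2 genes with opposite changes be compared. RefSeq promoters were found for 31 of the 44 members. Capitals mark the GC box GGGCGG on either strand, the letters bound by Sp1 family factors.

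Cacna2d3, chr14:29721865-29722114, minus strand: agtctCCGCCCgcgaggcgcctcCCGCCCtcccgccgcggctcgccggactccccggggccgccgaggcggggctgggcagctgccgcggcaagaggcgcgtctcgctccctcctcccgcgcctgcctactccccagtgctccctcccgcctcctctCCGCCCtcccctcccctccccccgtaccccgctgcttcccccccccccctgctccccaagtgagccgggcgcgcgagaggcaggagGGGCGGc

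Hcn2, chr10:79716384-79716633, plus strand: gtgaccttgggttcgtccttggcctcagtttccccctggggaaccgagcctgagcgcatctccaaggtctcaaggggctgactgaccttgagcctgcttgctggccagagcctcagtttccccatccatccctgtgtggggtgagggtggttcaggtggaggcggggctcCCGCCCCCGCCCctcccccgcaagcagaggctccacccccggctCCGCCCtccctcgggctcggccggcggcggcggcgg

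Both windows were rich in G and C (80.0% and 70.4%), with 4 GC boxes in the window of Cacna2d3 and 3 in that of Hcn2. The GC box was found in 41.5% of the 41 promoters of these 31 members and in 32.7% of the 32851 RefSeq promoters of this length. Neither window held the CRE TGACGTCA (1.55% of all promoters), its 5-base start TGACG (17.8%, which also lies within the CRE), the E-box CACGTG (6.02%), the AP-1 site TGANTCA (6.75%), the EGR site GCGTGGGCG (0.536%), the D-box TTATGNAA (3.07%) or TATAAA (12.4%), each searched on both strands.

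The gamma family held the largest rise among the abundant members. Cacng2 (chromosome 15, 77991748 to 78120028, minus strand, GRCm38) encodes stargazin, which carries AMPA receptors to the synapse and slows their closing. It had 3375, 2935 and 3544 normalized counts in wild-type controls and 5571, 6213 and 4899 after SD, with 2933, 3081 and 3307 in AcPb-/- controls and 6185, 5011 and 5111 after SD. All 6 SD libraries lay above all 6 controls. The log2 fold change was 0.76 ± 0.10 (SE, adjusted p = 0.000787) in wild-type mice, or 1.69-fold, and 0.80 ± 0.09 (SE, adjusted p = 0.00092) in AcPb-/- mice. With the term for the libraries with Xist reads the values were 0.78 (adjusted p = 0.00219) and 0.82 (adjusted p = 0.000914), and without those libraries 0.71 (adjusted p = 0.0714) and 0.89 (adjusted p = 0.0328). Leaving out any 1 library kept the call in both genotypes. An antisense gene, A730060N03Rik, overlaps exons of Cacng2, and the strand setting of the counting is not given in the sources used here, so the reads of both cannot be told apart.

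Cacng3, a second TARP of cortical neurons, had 5894, 5668 and 5659 normalized counts in wild-type controls and 7497, 7247 and 6960.3 after SD, which did not overlap. Its log2 fold change was 0.33 ± 0.06 (SE, adjusted p = 0.0027) in wild-type mice and 0.10 ± 0.09 (SE, adjusted p = 0.451) in AcPb-/- mice, where controls (5083, 5969.8 and 5767) and SD libraries (6532, 5475 and 5949) overlapped. With the term for the libraries with Xist reads the wild-type value was 0.38 (adjusted p = 0.0103), and without them 0.30 (adjusted p = 0.145). Cacng6, at 20.3, 45.1 and 17.9 counts in wild-type controls and 7.41, 5.81 and 14.8 after SD, fell at the bottom of the range: its log2 fold change was -1.45 ± 0.42 (SE, adjusted p = 0.0286) in wild-type and -1.46 ± 0.29 (SE, adjusted p = 0.0069) in AcPb-/- mice, and its wild-type call was lost without wild-type control 02 or wild-type SD 01 or 02, and in both genotypes with the Xist term (adjusted p = 0.0611 and 0.0504). The other 5 members, the TARPs Cacng4, Cacng5, Cacng7 and Cacng8 and the muscle subunit Cacng1, were not past the threshold in either genotype, with log2 fold changes between -0.67 and 0.15. The median over the 8 was -0.12 in wild-type and -0.15 in AcPb-/- mice.

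**Figure D3:**
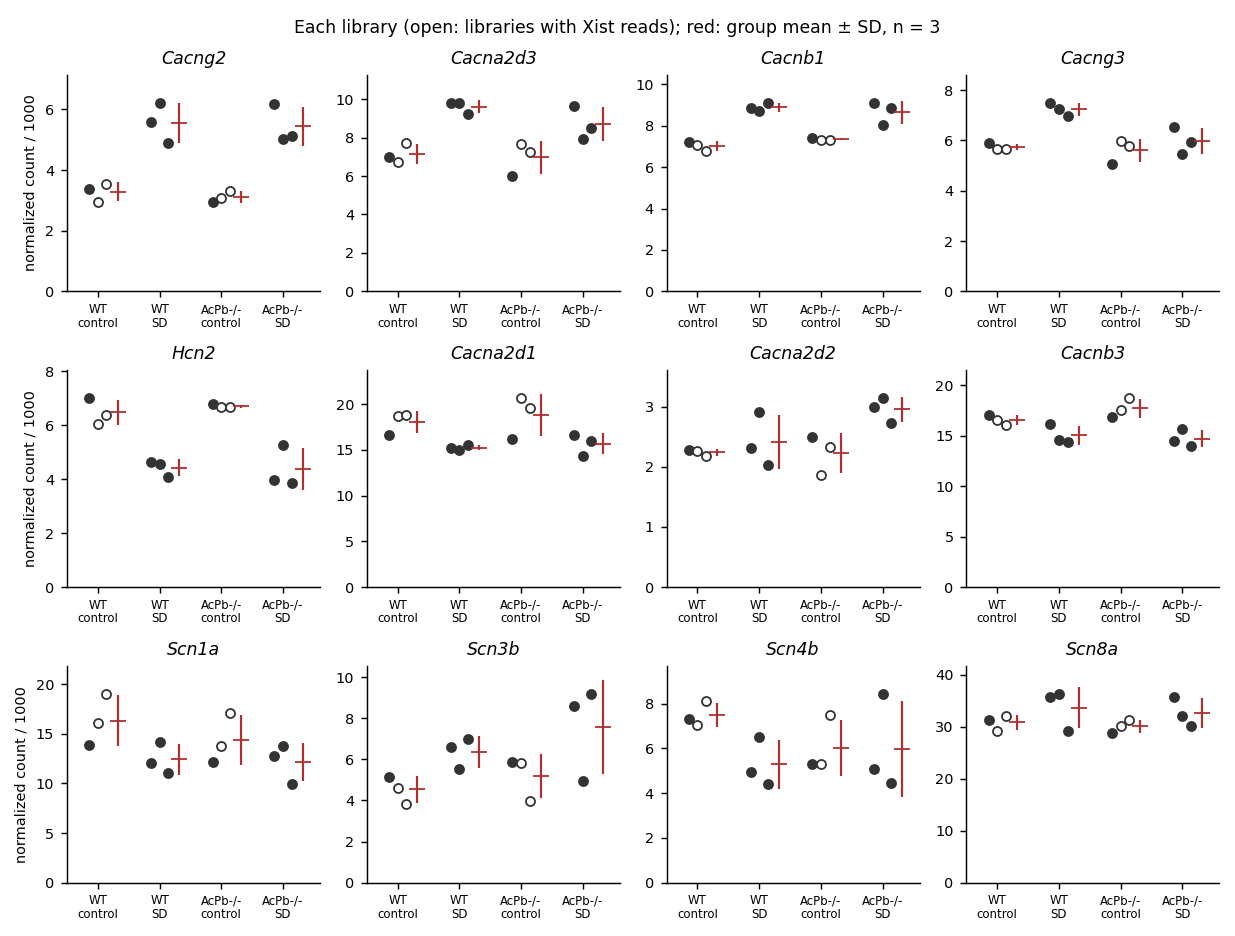
Normalized counts (in units of 1000) of 12 members in each library of the 4 groups, with open points for the 4 control libraries with Xist reads and red marks for the group mean ± SD (n = 3). For Cacng2 all SD points lie above all controls (4899 to 6213 against 2933 to 3544), for Hcn2 all lie below (3865 to 5266 against 6065 to 6998), and for Scn1a and Scn8a SD and control points overlap in both genotypes.

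Among the HCN genes, Hcn2 fell in both genotypes. Hcn2 (chromosome 10, 79716634 to 79736108, plus strand), whose promoter is shown above, encodes a slowly opening channel of broad expression in the brain. Hcn2 had 6998, 6065 and 6378 normalized counts in wild-type controls and 4649, 4549 and 4071 after SD, and 6771, 6664 and 6679.8 in AcPb-/- controls against 3969, 5266 and 3865 after SD. All SD libraries lay below all controls. On the log2 scale the fold change was -0.55 ± 0.07 (SE, adjusted p = 0.000953) in wild-type mice, or 0.682 times the control level, and -0.63 ± 0.11 (SE, adjusted p = 0.00392) in AcPb-/- mice. Hcn2 transcripts are 65.4% G and C, and genes above 60% had a median log2 fold change of -0.23 in wild-type and -0.32 in AcPb-/- mice. With each library's trend with transcript length and GC content removed the fall was smaller, at -0.26 (adjusted p = 0.0195) and -0.20 (adjusted p = 0.119). With the term for the libraries with Xist reads it was -0.61 (adjusted p = 0.00565) and -0.70 (adjusted p = 0.0018), and without those libraries -0.66 (adjusted p = 0.0977) and -0.64 (adjusted p = 0.0805). The call of Hcn2 held in 6 of 6 refits with 1 library left out in wild-type mice and in 6 of 6 in AcPb-/- mice. Hcn3 and Hcn4 were not past the threshold, with log2 fold changes of -0.04 ± 0.11 and -0.16 ± 0.21 in wild-type and -0.11 ± 0.12 and -0.16 ± 0.20 in AcPb-/- mice.

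Among the calcium channel beta subunits, which chaperone the alpha subunit to the membrane, Cacnb1 and Cacnb2 rose in both genotypes. Cacnb1 had 7205, 7068 and 6759 normalized counts in wild-type controls and 8835, 8682 and 9095 after SD, and 7384, 7292 and 7326 against 9071, 8010.3 and 8847 in AcPb-/- mice. The 6 SD libraries lay above the 6 controls. The log2 fold change of Cacnb1 was 0.34 ± 0.06 (SE, adjusted p = 0.00231) and 0.24 ± 0.06 (SE, adjusted p = 0.0225), and with the Xist term 0.31 (adjusted p = 0.00716) and 0.21 (adjusted p = 0.0361). In AcPb-/- mice its call was lost without AcPb-/- control 04 or 05 or AcPb-/- SD 02 or 04. Cacnb2 had 2104, 1999 and 1941 normalized counts in wild-type controls and 2701, 2714 and 2097 after SD, which overlapped, and 2091, 2114 and 2084 against 2798, 2284 and 2428 in AcPb-/- mice, which did not. Its log2 fold change was 0.30 ± 0.10 (SE, adjusted p = 0.0418) and 0.25 ± 0.08 (SE, adjusted p = 0.043). Both calls of Cacnb2 were lost with the Xist term, at 0.27 (adjusted p = 0.129) and 0.22 (adjusted p = 0.204), and with length and GC trends removed, at 0.25 (adjusted p = 0.119) and 0.10 (adjusted p = 0.321). They were also lost without wild-type control 01, 02 or 03 or wild-type SD 01 or 02 in wild-type mice and without AcPb-/- control 03, 04 or 05 or AcPb-/- SD 02 or 04 in AcPb-/- mice. In the fit of the 4 groups without the Xist term the AcPb-/- call was lost too, at 0.25 (adjusted p = 0.0645), and the wild-type call was kept, at 0.30 (adjusted p = 0.0348).

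Cacnb3, the most abundant beta subunit per length, had 16837, 17569 and 18709 normalized counts in AcPb-/- controls and 14514, 15657 and 14014 after SD, which did not overlap. Its log2 fold change was -0.26 ± 0.07 (SE, adjusted p = 0.022) in AcPb-/- mice and -0.14 ± 0.06 (SE, adjusted p = 0.147) in wild-type mice. Its transcript is 61.3% G and C, and the AcPb-/- value was 0.037 (adjusted p = 0.712) once length and GC trends were removed, with the direction turned. It was -0.25 (adjusted p = 0.0385) with the Xist term, and without those libraries -0.19 (adjusted p = 0.239). The call was also lost without AcPb-/- control 04 or 05 or AcPb-/- SD 02 or 04. Cacnb4, the fourth beta subunit, had log2 fold changes of 0.05 ± 0.08 (SE, adjusted p = 0.697) and 0.20 ± 0.08 (SE, adjusted p = 0.0789). The median of the 4 beta genes was 0.18 in wild-type and 0.22 in AcPb-/- mice. Exons of Cacnb1, Cacnb2 and Cacnb4 overlap annotated genes on the other strand.

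The alpha2delta subunits, extracellular proteins that raise channel numbers at the presynaptic membrane, were split. Cacna2d3 (chromosome 14, 28904943 to 29721864, minus strand) had 7008, 6739.7 and 7729 normalized counts in wild-type controls and 9769, 9803 and 9215 after SD, with no overlap, and 6022, 7670.1 and 7246 against 9648, 7927 and 8478 in AcPb-/- mice, also with no overlap. The log2 fold change was 0.42 ± 0.07 (SE, adjusted p = 0.00191) and 0.32 ± 0.10 (SE, adjusted p = 0.0499). With the Xist term it was 0.54 (adjusted p = 0.00404) and 0.43 (adjusted p = 0.00803), and without those libraries 0.45 (adjusted p = 0.0797) and 0.53 (adjusted p = 0.0423). The AcPb-/- call lay at the threshold and was lost without AcPb-/- control 03, 04 or 05 or AcPb-/- SD 02 or 04, while the wild-type call held in 6 of 6 such refits. With length and GC trends removed the AcPb-/- call was also lost, at 0.27 (adjusted p = 0.0942), and the wild-type value was 0.39 (adjusted p = 0.00223).

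Cacna2d1, a binding site of gabapentin and the leading alpha2delta gene, had 16591, 18730.3 and 18767 normalized counts in wild-type controls and 15173, 15005 and 15499.5 after SD, with no overlap. It changed by -0.24 ± 0.07 (SE, adjusted p = 0.023) in wild-type mice and -0.26 ± 0.10 (SE, adjusted p = 0.0874) in AcPb-/- mice. The 2 wild-type controls with Xist reads had the higher values. In the fit of the 4 groups the wild-type value was -0.24 (adjusted p = 0.0636) without the Xist term and -0.08 (adjusted p = 0.516) with it. Its call was lost without wild-type control 02 or 03 or wild-type SD 01 or 02. Cacna2d2, which also binds gabapentin, rose in AcPb-/- mice from 2499.6, 1863 and 2325 to 2989.7, 3136 and 2733 normalized counts, at 0.42 ± 0.11 (SE, adjusted p = 0.0213) against 0.09 ± 0.11 (SE, adjusted p = 0.588) in wild-type mice. With the Xist term the AcPb-/- value was 0.31 (adjusted p = 0.143), and the call was lost without AcPb-/- control 04 or AcPb-/- SD 02 or 03. Cacna2d4, known from photoreceptors and low in cortex, went from 128, 145 and 147 to 82.1, 98.2 and 80.2 in AcPb-/- mice, a change of -0.68 ± 0.16 (SE, adjusted p = 0.0137), with -0.38 ± 0.15 (SE, adjusted p = 0.0883) in wild-type mice. It was past the threshold with the Xist term, at -0.57 (adjusted p = 0.0284), but not without AcPb-/- control 04 or AcPb-/- SD 02 or 04.

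Of the 10 pore-forming calcium subunits, Cacna1f was past the threshold in both genotypes and Cacna1b in AcPb-/- mice. Cacna1b, the N-type channel of presynaptic terminals, had 11389, 12077 and 11741 normalized counts in AcPb-/- controls and 10659.6, 9903 and 9895 after SD, and 10795, 10869.5 and 10570.0 against 10128, 9818 and 9068 in wild-type mice. Neither pair of groups overlapped. On the log2 scale the fold change was -0.21 ± 0.06 (SE, adjusted p = 0.0306) in AcPb-/- and -0.15 ± 0.06 (SE, adjusted p = 0.0894) in wild-type mice. Under the Xist term, the AcPb-/- value was -0.19 (adjusted p = 0.0581), and the call was lost without AcPb-/- control 04 or 05 or AcPb-/- SD 03 or 04. Cacna1f, on the X chromosome, was counted at 57.0, 49.3 and 70.4 in wild-type controls and 113, 123 and 94.0 after SD, a log2 fold change of 0.89 ± 0.19 (SE, adjusted p = 0.00795), with 0.55 ± 0.18 (SE, adjusted p = 0.0493) in AcPb-/- mice. With the Xist term these were 0.99 (adjusted p = 0.00951) and 0.64 (adjusted p = 0.0519), and the AcPb-/- call was lost without AcPb-/- control 03 or 05 or AcPb-/- SD 02, 03 or 04.

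The L-type channels Cacna1c and Cacna1d, which couple activity to transcription, had log2 fold changes of 0.22 ± 0.10 and 0.11 ± 0.08 in wild-type mice and 0.22 ± 0.10 and 0.18 ± 0.09 in AcPb-/- mice, with adjusted p between 0.13 and 0.339. The P/Q-type Cacna1a and R-type Cacna1e lay between 0.05 and 0.22 in both genotypes. Among the T-type channels, which open near the resting potential and support bursts, Cacna1g missed the threshold narrowly in wild-type mice at 0.22 ± 0.07 (SE, adjusted p = 0.0502). Its SD libraries (8432, 8269.8 and 8213) lay above its controls (7993, 6576 and 6817). In AcPb-/- mice the value was 0.13 ± 0.06 (SE, adjusted p = 0.15). Cacna1h and Cacna1i lay between -0.11 and 0.18 and were not past the threshold.

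Of the 10 sodium channel alpha subunits, Scn1a and Scn7a were past the threshold in wild-type mice and Scn10a in AcPb-/- mice, with medians over the 10 of -0.30 and -0.10. Scn8a, found at axon initial segments and nodes, had 31396, 29239 and 31997 normalized counts in wild-type controls and 35677, 36346 and 29148 after SD, a log2 fold change of 0.12 ± 0.09 (SE, adjusted p = 0.374), and 0.12 ± 0.08 (SE, adjusted p = 0.317) in AcPb-/- mice. Scn2a1 had -0.07 ± 0.07 (SE, adjusted p = 0.531) and -0.09 ± 0.11 (SE, adjusted p = 0.584), and Scn3a, mainly of the developing brain, 0.02 ± 0.06 (SE, adjusted p = 0.817) and -0.11 ± 0.11 (SE, adjusted p = 0.515). Groups overlapped for all 3 in both genotypes.

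Scn1a, the leading sodium channel of parvalbumin interneurons, was lower after SD in wild-type mice. It had 13871, 16072 and 19043 normalized counts in wild-type controls and 12112, 14177 and 11059 after SD, and 12199, 13758 and 17137 against 12750.4, 13764 and 9997 in AcPb-/- mice, with overlap in both. Its log2 fold change was -0.39 ± 0.12 (SE, adjusted p = 0.0361) in wild-type and -0.23 ± 0.15 (SE, adjusted p = 0.274) in AcPb-/- mice. The highest value in each genotype was that of a control with Xist reads. In the fit of the 4 groups the wild-type value was -0.39 (adjusted p = 0.0834) without the Xist term and -0.16 (adjusted p = 0.514) with it. Without the libraries with Xist reads the value was -0.16. The call was also lost without wild-type control 02 or 03 or wild-type SD 01 or 04. Scn1a, Scn2a1, Scn3a and Scn9a share stretches of 100 bases with each other, at most 2.22% of such stretches in any of them.

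Scn7a, a sodium-sensing channel of glia and other cells, had 504, 558 and 631 normalized counts in wild-type controls and 450.2, 384 and 489 after SD, which did not overlap, and 402, 450.2 and 426 against 665, 350.1 and 533 in AcPb-/- mice, which did. The log2 fold change was -0.36 ± 0.12 (SE, adjusted p = 0.0463) in wild-type and 0.23 ± 0.20 (SE, adjusted p = 0.45) in AcPb-/- mice. In the fit of the 4 groups the wild-type value was -0.36 (adjusted p = 0.185) without the Xist term and -0.24 (adjusted p = 0.512) with it. The call was also lost without wild-type control 02 or 03 or wild-type SD 01 or 02. Scn10a, at 11.7, 12.4 and 11.3 counts in AcPb-/- controls and 30.2, 19.6 and 32.6 after SD, had 1.12 ± 0.28 (SE, adjusted p = 0.0196) in AcPb-/- and 1.14 ± 0.42 (SE, adjusted p = 0.0708) in wild-type mice. Under the Xist term, the AcPb-/- value was 0.76 (adjusted p = 0.262), and the call was lost without AcPb-/- control 04 or AcPb-/- SD 02 or 04. Scn4a, Scn9a and Scn11a were not past the threshold, with log2 fold changes between -0.77 and 0.33.

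Of the sodium channel beta subunits, which anchor the alpha subunit and shape its inactivation, Scn2b was not past the threshold, at -0.07 ± 0.06 (SE, adjusted p = 0.446) in wild-type mice and 0.03 ± 0.06 (SE, adjusted p = 0.707) in AcPb-/- mice. Scn3b had 5144, 4627 and 3841 normalized counts in wild-type controls and 6592, 5512 and 6983 after SD, with no overlap, at 0.49 ± 0.11 (SE, adjusted p = 0.0104). In AcPb-/- mice the controls (5855, 5811 and 3967) and the SD libraries (8589, 4966 and 9194) overlapped, and the value was 0.52 ± 0.23 (SE, adjusted p = 0.141). The wild-type call held in 6 of 6 refits without 1 library. It was lost in the fit of the 4 groups both without the Xist term, at 0.49 (adjusted p = 0.114), and with it, at 0.30 (adjusted p = 0.448).

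Scn4b, whose protein drives resurgent sodium current, had 7319, 7069 and 8120.3 normalized counts in wild-type controls and 4961, 6520.4 and 4394 after SD, with no overlap. In AcPb-/- mice it had 5287, 5324 and 7485 and 5078, 8442 and 4433, with overlap. On the log2 scale the fold change was -0.52 ± 0.12 (SE, adjusted p = 0.0123) in wild-type and -0.05 ± 0.23 (SE, adjusted p = 0.895) in AcPb-/- mice. The parvalbumin gene Pvalb had 2048, 2442 and 3326 normalized counts in wild-type controls, 1972, 2542 and 2270.5 after SD, 1791, 1955 and 3073 in AcPb-/- controls and 2093, 3417 and 1655 after SD. Its highest library was AcPb-/- SD 03, also the highest for Scn4b. Of 9 markers of parvalbumin interneurons, 1 rose and 0 fell in each genotype at this threshold, and their summed level was 57888 to 62643 in wild-type controls and 53655 to 64028 after SD. Of 16 striatal markers, 3 fell and 0 rose in wild-type mice and 0 were past the threshold in AcPb-/- mice. The part of these cells in the Scn4b values was not tested. In the fit of the 4 groups the wild-type value of Scn4b was -0.52 (adjusted p = 0.0942) without the Xist term and -0.42 (adjusted p = 0.295) with it. The call was also lost without wild-type SD 01.

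**Figure D4:**
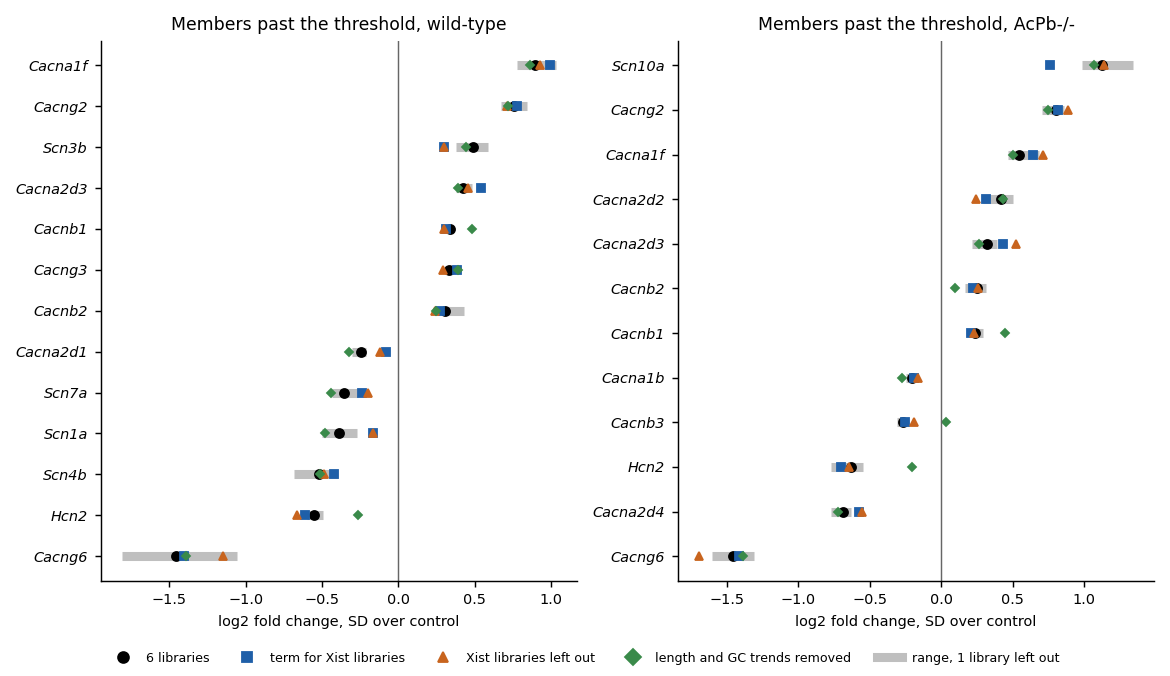
Log2 fold change (SD over control) of members past the threshold in wild-type (left, 13) and AcPb-/- mice (right, 12): 6 libraries (black), with a term for libraries with Xist reads (blue), without those libraries (orange), with length and GC trends removed (green), and the range with 1 library left out (grey). Cacng2 stays between 0.71 and 0.89 in the coloured fits, whereas Hcn2 moves to -0.26 and -0.20 and Cacnb3 to 0.037 with length and GC trends removed.

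Channel transcripts are long, with a median of 6184.5 bases against 2936 over the genes tested with an annotation, and the fold change of all genes moved with length and GC content. Among genes averaging 10 or more, the median log2 fold change rose from -0.06 at up to 2000 bases to 0.05 above 8000 bases in wild-type mice and from -0.06 to 0.11 in AcPb-/- mice. The 15 members above 8000 bases had medians of 0.05 and 0.12. The 7 members above 6000 and up to 8000 bases had medians of -0.16 and 0.05, against 0.05 and 0.08 over all genes of that length.

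Genes of known channel partners were counted from a list of 36, of which 35 were tested. In wild-type mice 7 rose and 2 fell, and in AcPb-/- mice 9 rose and 2 fell, shares of 25.7% and 31.4% that lay near the 25.4% and 27.4% of all genes. Their median log2 fold changes were 0.12 and 0.15. These partner calls kept their direction with the Xist term, and 4 of 9 and 7 of 11 stayed past the threshold (Calm2, Cnih3, Rims2 and Unc79 in both genotypes, and Cnih2, Gem and Rrad in AcPb-/- mice). Without the libraries with Xist reads the directions were again the same, with 0 of 9 and 1 of 11, Calm2, past it. Unc79, a subunit of the sodium leak channel complex, rose most among the abundant ones, from 5236, 4718 and 5115 to 7424, 7459.9 and 6305 normalized counts in wild-type and from 5132, 4868 and 4606 to 7920.0, 6348 and 6982 in AcPb-/- mice, at 0.49 ± 0.08 (SE, adjusted p = 0.00199) and 0.54 ± 0.09 (SE, adjusted p = 0.00289). The pore gene of that complex, Nalcn, was at -0.01 ± 0.05 (SE, adjusted p = 0.929) and -0.08 ± 0.07 (SE, adjusted p = 0.47). Calm2, one of the calmodulin genes, whose protein regulates calcium and sodium channels, rose by 0.33 ± 0.08 and 0.37 ± 0.09 (adjusted p = 0.0108 and 0.0142).

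**Figure D5:**
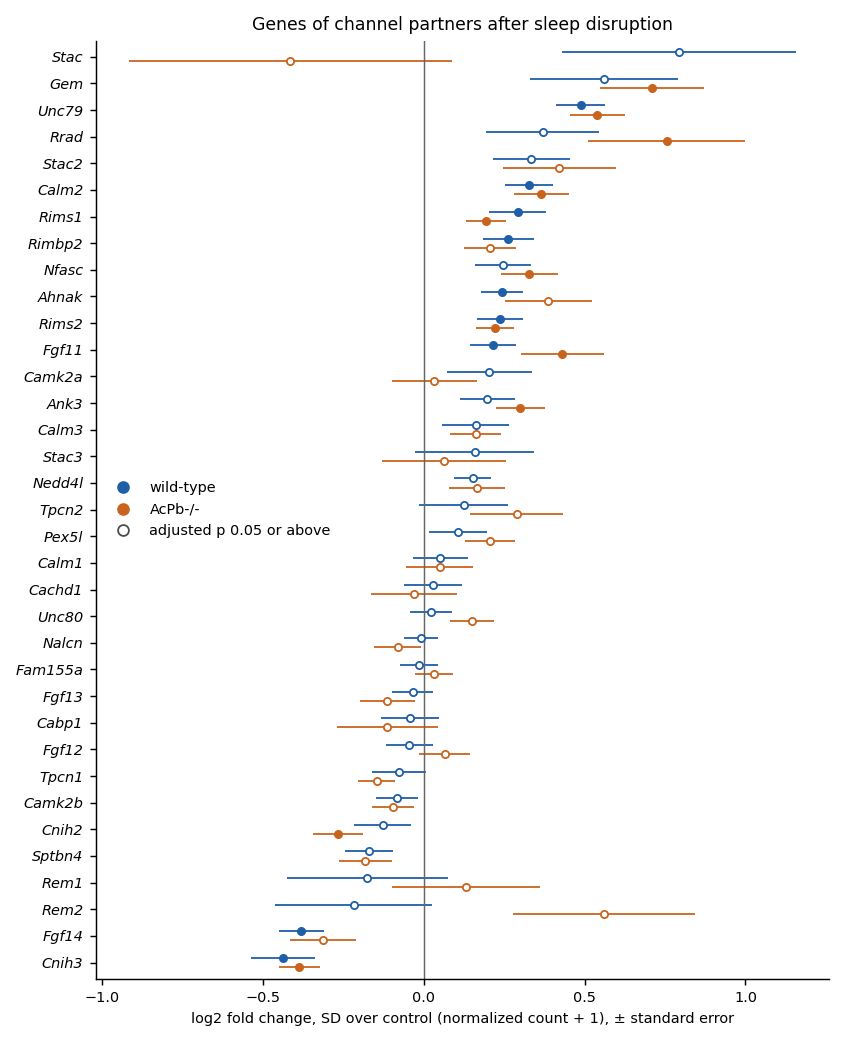
Log2 fold change (SD over control, ± standard error) of the 35 partner genes in wild-type (blue) and AcPb-/- mice (orange), ordered by the wild-type value, with filled points past the threshold. Unc79 lies at 0.49 and 0.54, and Cnih3 at -0.44 and -0.39.

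Of the active zone genes that tether calcium channels at release sites, Rims1 and Rims2 rose in both genotypes. Rims1 had 0.29 ± 0.09 (SE, adjusted p = 0.0349) and 0.19 ± 0.06 (SE, adjusted p = 0.0499), Rims2 had 0.24 ± 0.07 (SE, adjusted p = 0.0337) and 0.22 ± 0.06 (SE, adjusted p = 0.0246), and Rimbp2 had 0.26 ± 0.08 (SE, adjusted p = 0.0355) in wild-type mice, with 0.21 ± 0.08 (SE, adjusted p = 0.0913) in AcPb-/- mice. The fibroblast growth factor homologous genes, whose proteins bind sodium channel tails, were split: Fgf11 rose at 0.22 ± 0.07 (SE, adjusted p = 0.0457) and 0.43 ± 0.13 (SE, adjusted p = 0.0382), and Fgf14 fell in wild-type mice at -0.38 ± 0.07 (SE, adjusted p = 0.00381), with -0.31 ± 0.10 (SE, adjusted p = 0.0508) in AcPb-/- mice. Fgf12 and Fgf13, which had higher mean counts, were not past the threshold in either genotype, with log2 fold changes between -0.11 and 0.07. Ank3 and Nfasc, which hold sodium channels at the axon initial segment, rose in AcPb-/- mice at 0.30 ± 0.08 (SE, adjusted p = 0.0203) and 0.33 ± 0.09 (SE, adjusted p = 0.0238). In wild-type mice they were at 0.20 ± 0.09 (SE, adjusted p = 0.118) and 0.25 ± 0.09 (SE, adjusted p = 0.0617). The cornichon genes encode AMPA receptor auxiliary proteins like the TARPs. Cnih3 fell at -0.44 ± 0.10 (SE, adjusted p = 0.0105) and -0.39 ± 0.06 (SE, adjusted p = 0.00339), and Cnih2 at -0.27 ± 0.08 (SE, adjusted p = 0.0338) in AcPb-/- mice, with -0.13 ± 0.09 (SE, adjusted p = 0.338) in wild-type mice. Ahnak, which binds calcium channel beta subunits, rose in wild-type mice at 0.24 ± 0.07 (SE, adjusted p = 0.0215) and was at 0.39 ± 0.14 (SE, adjusted p = 0.064) in AcPb-/- mice. Gem and Rrad, small GTPases that inhibit calcium channels, had means of 88.2 and 87.4 normalized counts and rose in AcPb-/- mice at 0.71 ± 0.16 (SE, adjusted p = 0.0131) and 0.75 ± 0.24 (SE, adjusted p = 0.0496). In wild-type mice they were at 0.56 ± 0.23 (SE, adjusted p = 0.104) and 0.37 ± 0.18 (SE, adjusted p = 0.154), and the SD libraries of both lay above the controls. Rem1 and Rem2, also on the partner list, were not past the threshold in either genotype, with log2 fold changes between -0.22 and 0.56. With the Xist term the calls of Rims1, Rimbp2, Fgf11, Fgf14, Ank3, Nfasc and Ahnak were lost. Those of Rims2, Cnih3, Cnih2, Gem and Rrad stayed. Fgf11 was then at 0.08 (adjusted p = 0.684) in wild-type and 0.30 (adjusted p = 0.0945) in AcPb-/- mice.

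Between genotypes, 0 of the 44 members were past the threshold in controls (0.0197% of 20273 genes were) and 0 after SD (0.0145% of 20621 genes) in limma. At an unadjusted p under 0.05 there were 9 of 44 in controls, where 8.53% of all genes were, and 7 of 44 after SD, where 6.13% were. DESeq2 and edgeR on recovered reads called 0 and 0 in controls and 1 and 0 after SD, the 1 being Scn9a, the sodium channel of pain neurons. Scn9a had 186, 199 and 181 normalized counts in wild-type and 270.2, 309 and 251 in AcPb-/- mice after SD, a difference of 0.55 (95% interval 0.28 to 0.81, adjusted p = 0.277) in limma. An antisense gene overlaps its exons. Hcn4, the pacemaker channel of heart and thalamus, was chosen after its values were seen: it had 120.3, 182 and 119.6 normalized counts in wild-type and 210.0, 201 and 208 in AcPb-/- controls, a difference of 0.58 (95% interval 0.18 to 0.97, adjusted p = 0.44), and 121, 100.4 and 153 against 212, 132 and 225 after SD, a difference of 0.58 (95% interval 0.08 to 1.09, adjusted p = 0.758). The control groups did not overlap, and the SD groups did. Scn7a and Cacna1i, also chosen after their values were seen, had smaller unadjusted p-values in controls. In limma these were 0.00305 and 0.00402, against 0.00906 for Hcn4. Their differences were -0.40 and -0.25 (adjusted p = 0.362 and 0.379). For Cacna1i the genotypes did not overlap in controls or after SD. Over the 37 members with a mean of at least 100, the median half-width of the 95% interval, which is not adjusted for the number of genes, was 0.20 in controls and 0.23 after SD on the log2 scale, so for the median gene a difference of this size or less could not be told from 0.

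The SD effect differed between genotypes, past the threshold, for 0 of the 44 members (0% of 20978 genes) in limma's interaction test. At an unadjusted p under 0.05 there were 3 (6.82%, against 4.00% of all genes), Scn9a, Cacng3 and Scn7a, and DESeq2 and edgeR called 0 and 0. The difference, AcPb-/- minus wild-type, was 0.04 (95% interval -0.27 to 0.36, adjusted p = 0.993) for Cacng2 and -0.08 (95% interval -0.39 to 0.23, adjusted p = 0.986) for Hcn2. For members past the threshold in 1 genotype, the difference was 0.47 (95% interval -0.18 to 1.12, adjusted p = 0.986) for Scn4b, 0.58 (95% interval 0.02 to 1.14, adjusted p = 0.986) for Scn7a and -0.24 (95% interval -0.46 to -0.02, adjusted p = 0.986) for Cacng3. For Cacna2d2 it was 0.32 (95% interval -0.05 to 0.70, adjusted p = 0.986). For Scn9a, past the threshold in neither genotype, the difference was 0.58 (95% interval 0.18 to 0.99, adjusted p = 0.986). Its log2 fold change after SD was -0.26 (adjusted p = 0.223) in wild-type and 0.33 (adjusted p = 0.0743) in AcPb-/- mice. Intervals had a median half-width of 0.31 over the 37 abundant members, so calls in 1 genotype and not in the other are not shown to differ between them.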

How the data were processed

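Per the labels, libraries were made with the TruSeq Stranded mRNA kit from total RNA. The submitters' processing notes name bcl2fastq, HISAT2 2.2.1, featureCounts, DESeq2 1.31.16 and mm10, whereas the paper's methods name HTSeq as the counter. The strand setting is not given in the sources used here. The deposited values are a signal, the reads of each gene divided by a size factor of its library, in 5 tables of 2 groups each by the authors. Their columns of mean, log2 fold change, standard error, statistic and p-values were not used. Of the 16 samples of the labels, 12 have a column, and the other 4 were not analysed here. For 0 of the columns of per-sample values was there no matching sample. Undoing the size factors gave whole reads, within 0.01, for 100.0% of 732630 values.

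Fold changes were fitted with limma 3.58.1 (R 4.3.3) on log2(value + 1) with a variance trend, from the table of the 2 groups and leaving out genes with 0 reads in all of its libraries. Values by library, the difference of the SD effects and the fits with Xist used the 12 libraries scaled together. Against these, member fold changes moved by at most 0.0086. P-values measure the spread between the labelled samples, and were adjusted by the Benjamini-Hochberg method. Every pair of replicates differed beyond counting noise (chi-square per degree of freedom of 7.00 or more), so none was counted as 1 sample. Lengths and positions come from GENCODE M21 (GRCm38), matched by symbol for 98.5% of genes and for all members (Scn2a1 as Scn2a). Tools used on recovered reads were DESeq2 1.42.0 and edgeR 4.0.16, and Python 3.11.15 drew the figures. Of 200 genes changed by 1 on the log2 scale, up or down, in simulated wild-type data, 185 were recovered among 20071 genes. For the difference of the SD effects, 87 of 200 were recovered among 20653 genes. Recovery at the levels and fold changes of the members was not tested.

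Named with values in every library were members past the threshold with a mean of at least 100, up to 10 per comparison by absolute fold change, and the gene of each role with the highest level per length. Up to 8 partner genes per comparison were named by the same rule, and members of counts of 5 or fewer besides. Other partner genes were named beyond this rule, among them Gem and Rrad, which have means under 100. The members and lists were chosen with earlier results of these data known. A few members counted in the totals are not reported by name or drawn here.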

Additional observations from a re-analysis of the deposited data

How the results depend on the processing

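The count of members past the threshold was 14 in wild-type and 13 in AcPb-/- mice. It came to 6 and 4 at an adjusted p under 0.01, where the share of all genes was not counted. With the term for libraries with Xist reads it was 7 in wild-type (19.3% of all genes) and 10 in AcPb-/- mice (24.7%). Leaving out 1 library at a time gave 8 to 19 in wild-type mice, where 13.3% to 30.7% of all genes were called. It gave 5 to 13 in AcPb-/- mice (16.6% to 26.6% of all genes). For the genotype comparison in controls it gave 0 to 1 (0% to 0.836% of all genes). After SD the genotype comparison gave 1 in DESeq2, Scn9a, and 0 in the other fits. With the replicate number as a block, 0 members were past the threshold in either SD comparison, with 15 and 6 at an unadjusted p under 0.05 (34.1% and 13.6%, against 33.7% and 22.7% of all genes, of which 0 passed the adjusted threshold) and 1 residual degree of freedom. The block was also 0 for the genotype comparison after SD and for the difference of the SD effects. The labels do not say what the numbers mark. The deviations of same-numbered libraries correlated at -0.096 to 0.076 within each genotype, at 0.287 (02) and 0.358 (04) between the genotypes after SD, and at -0.60 (03) in controls. With fewer than 3 pairs in each comparison the samples were not treated as paired. No paired analysis was possible for the genotype comparison in controls because the groups share 1 number. With length and GC trends removed, Cacnb3 turned to 0.037 in AcPb-/- mice (adjusted p = 0.712), for which the cause was not tested. Of 459 refits of the 27 calls of single members, 306 kept the call and direction, 152 kept the direction but not the call, and 1 turned. These refits share libraries with each other and with the calls, so the tally is not independent support. Other pseudocounts (0.1 and 10), a mean of at least 10, DESeq2, edgeR, all 4 groups in one fit, thinning to the smallest total, and removal of length and GC trends left both SD counts within 1.5 times. Thinning left 14 and 10 members past the threshold, with 22.9% and 25.5% of all genes. The values of the 7 members with a mean under 100 rest on few reads.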
